A study of Mus musculus with 2 samples.

Results

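The interferon-stimulated genes described here are 39 genes that cells switch on when interferon reaches them. They were chosen by name from genes known to respond to type I or type II interferon. The gene lists of the series held 38 of them among 28625 gene symbols, and Mx2 was not analysed here. Each gene was read as UMIs (unique molecular identifiers, which count captured RNA molecules) in single cells of mouse tibialis anterior, a leg muscle, from C57B/6 animals of 12 weeks. One group was uninjured muscle. The other, injured, was collected 24 hours (day 1) after barium chloride (1.2% BaCl) was injected into the muscle, which kills muscle fibres. Each group was 1 library of the 10x Single Cell 3' v2 chemistry, so differences between the groups have no replicate check and no p-value is given. All intervals are 95% intervals for counting error alone.

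Interferons are secreted proteins that bind receptors on the cell surface. Type I interferons signal through JAK kinases to a complex that holds STAT2 and IRF9 and binds DNA at the interferon-stimulated response element (ISRE). Type II interferon, made by lymphocytes, acts on genes through the gamma-activated site (GAS). The genes turned on include regulators that amplify or limit the response (Irf1, Irf7, Irf9, Stat2, Usp18), antiviral effectors (such as Isg15, the Ifit family, Rsad2 and Bst2), sensors of foreign nucleic acid with the oligoadenylate synthetases that feed RNA decay (such as Ifih1, Ddx58, Zbp1 and Oas1a), interferon-inducible GTPases that attack the vacuoles of intracellular pathogens (the Gbp and Irgm families, Igtp, Ifi47 and Iigp1), and the chemokines Cxcl9 and Cxcl10, which draw T cells.

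Many of the genes lie in clusters of relatives. In the RefSeq annotation of build GRCm38.p6, the Ifit genes Ifit2, Ifit3, Ifit3b and Ifit1 follow each other at chr19:34550550-34650009. Chromosome 11 held 8 of the 39 genes and chromosome 5 held 7. RefSeq promoters of the same build, read over the 250 bases before the start, were matched for 30 genes. The ISRE letters GAAANNGAAA (N is any base, both strands read) were present in 16 of the 30, or 53.3%, against 3.46% of 27025 symbols with a promoter. The GAS letters TTCNNNGAA were present in 6 of the 30, or 20%, against 8.13% of all symbols. A match describes the letters only. Either motif was present in 18 of the 30, or 60%, against 11.1% of all symbols. Irf7, Cxcl9, Ifitm3, Oasl2 and Ifih1 were among the genes with neither. Stretches of 80 bases from 7 matching promoters are shown 5′ to 3′ on the gene's strand, with ISRE or GAS matches in capitals. They come from Isg15 at chr4:156200857-156200936 on the minus strand, Ifit1 at chr19:34640745-34640824 on the plus strand, Rsad2 at chr12:26456533-26456612 on the minus strand, Gbp2 at chr3:142620564-142620643 on the plus strand, Cxcl10 at chr5:92349060-92349139 on the minus strand, Igtp at chr11:58199476-58199555 on the plus strand and Irf1 at chr11:53769884-53769963 on the plus strand.
Isg15: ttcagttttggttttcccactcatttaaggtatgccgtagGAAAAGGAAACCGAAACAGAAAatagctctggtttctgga
Ifit1: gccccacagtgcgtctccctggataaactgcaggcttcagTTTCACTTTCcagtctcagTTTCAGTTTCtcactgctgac
Rsad2: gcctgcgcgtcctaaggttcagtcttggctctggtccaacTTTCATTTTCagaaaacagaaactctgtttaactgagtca
Gbp2: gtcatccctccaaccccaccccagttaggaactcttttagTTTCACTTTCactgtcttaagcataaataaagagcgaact
Cxcl10: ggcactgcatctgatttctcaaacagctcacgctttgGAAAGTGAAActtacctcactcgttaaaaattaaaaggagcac
Igtp: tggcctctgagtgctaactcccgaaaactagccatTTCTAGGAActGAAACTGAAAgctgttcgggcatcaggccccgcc
Irf1: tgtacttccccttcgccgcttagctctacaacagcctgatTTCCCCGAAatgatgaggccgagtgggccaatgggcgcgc
In Isg15 and in Ifit1 the ISRE letters occurred more than once, Igtp held both motifs side by side, and Irf1 held the GAS alone.

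After filtering, 5139 uninjured and 4260 injured cells remained, with medians of 3156 and 7268 UMIs a cell. The libraries came from animals of different sex: Xist gave 16575 UMIs in the uninjured library and 0 in the injured one, and Y-linked genes gave 0 and 4456. The libraries shared 33 cell barcodes, and 31 of them were kept. Cells were clustered with the interferon-stimulated genes and fixed lists of other interferon pathway genes left out, so these genes did not enter the clustering. Genes outside the lists, among them Ly6a, were not left out. Ly6a followed the summed gene group, Ifitm3 and Bst2 included, in uninjured endothelial-like cells. Clusters were named from marker lists. The classes that both libraries filled with 50 cells or more were these 6: endothelial-like cells (2666 uninjured and 468 injured), fibro-adipogenic progenitor-like (FAP-like) cells (800 and 407), tenocyte-like cells (448 and 168), glial-like cells (249 and 63), cells like pericytes and smooth muscle (113 and 116), and monocyte and macrophage-like cells (136 and 2746). Different clusters held most of each class in the 2 libraries, cluster 9 for injured endothelial-like cells against clusters 1, 3, 7 and 12 for uninjured ones. Levels are in CPM, the UMIs of a gene scaled to 1000000 UMIs of the class in that library.

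In uninjured muscle, endothelial-like cells had the highest levels. The summed level of all 38 genes was 8365 CPM in endothelial-like cells, 3437 in FAP-like cells, 3375 in monocyte and macrophage-like cells, 2308 in the pericyte and smooth muscle-like class, 1626 in tenocyte-like cells and 1385 in glial-like cells. Ifitm3, which blocks virus entry at the membrane, and Bst2, which tethers budding virus, gave much of these sums. Without that pair the summed level was 3505 CPM in endothelial-like cells against 1160 CPM in the next class, monocyte and macrophage-like cells. Endothelial-like cells had the highest level of 30 of the 38 genes and monocyte and macrophage-like cells of the other 8, which included Zbp1, Cxcl10 and Trim30a. Among those 8, Oas1a (12.4 against 10.7 CPM) and Oasl1 (10.7 against 10.7 CPM) were near ties with endothelial-like cells. The share of all genes that is highest in each class was not counted.

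Isg15 encodes a ubiquitin-like modifier. Its uninjured level was 512 CPM in endothelial-like cells, 115 CPM in monocyte and macrophage-like cells, 82.3 CPM in the pericyte and smooth muscle-like class, 72.0 CPM in FAP-like cells, 49.6 CPM in glial-like cells and 9.70 CPM in tenocyte-like cells. Cxcl9 and Iigp1 were further apart: Cxcl9 was at 81.0 CPM in endothelial-like cells and at 8.67 CPM in the next class, and Iigp1, a GTPase of the immunity-related family, was at 481 CPM against 80.2 CPM. Zbp1, a sensor of unusual nucleic acid helices, had another order, with 60.4 CPM in monocyte and macrophage-like cells, 23.6 CPM in FAP-like cells and 6.85 CPM in endothelial-like cells. Levels in the other classes were set beside RNA carried over from endothelial-like cells. In uninjured FAP-like cells the 12 endothelial markers stood at 3.21 to 11.5% of their endothelial level, and 29 of 34 genes stood above that range. The exceptions were Cxcl9, Gbp6, Iigp1, Oasl1 and Rsad2. In uninjured monocyte and macrophage-like cells the markers stood at 3.01 to 8.28%, and 30 of 34 genes stood above, with Cxcl9, Gbp2, Gbp6 and Iigp1 as the exceptions. Fewer genes stood above the range in tenocyte-like (23 of 34), glial-like (21 of 34) and pericyte and smooth muscle-like cells (9 of 34). The markers stood there at 3.18 to 7.22%, 2.83 to 11.7% and 5.56 to 30.4%. Isg15, at 1.89%, 9.67% and 16.1% of its endothelial level, was not above the range in these classes.

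**Figure D1:**
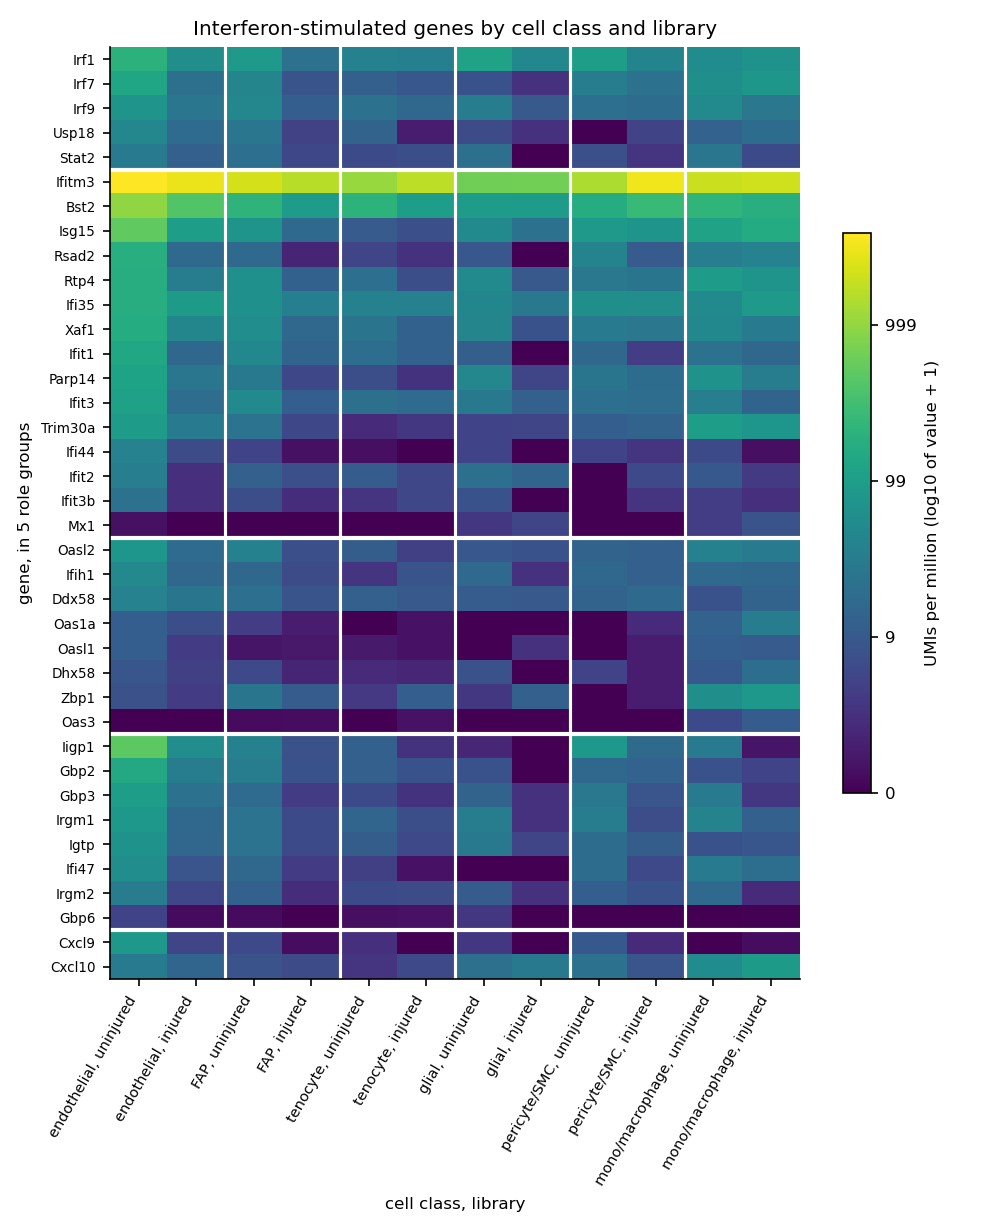
Level of the 38 measured genes (rows, in 5 role groups) in each class and library (columns), in CPM on a log10 scale of the value plus 1. The uninjured endothelial-like column is brighter than its injured neighbour for most genes, while the monocyte and macrophage-like pair of columns differ less, apart from Iigp1, Gbp3 and Irgm2.

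At 24 hours after injury the endothelial-like cells carried lower levels of nearly the whole gene group. Of 36 genes with at least 20 UMIs in the class, 32 were at least 2-fold lower in injured than in uninjured endothelial-like cells and 0 were at least 2-fold higher. Over all 11291 genes measured in the class, 20% were at least 2-fold lower and 10.8% at least 2-fold higher. The median log2 ratio of the 36 genes was -2.18, beside -0.19 for all genes, and without Ifitm3 and Bst2 the summed level went from 3505 to 751 CPM. The genes within 2-fold were Oas1a, Ifi35, Ddx58 and Ifitm3. Oas3 had 0 UMIs in both libraries, which allows levels up to 0.326 and 0.771 CPM, and Mx1, which RefSeq lists as a transcribed pseudogene, had 4 and 0 UMIs.

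All 5 regulators were lower. Irf7, the factor that amplifies type I interferon production, was at 134 CPM in uninjured and 19.8 CPM in injured endothelial-like cells, 6.76-fold lower (5.37 to 8.62). Irf1, a factor induced strongly through GAS, was at 199 and 58.8 CPM, 3.38-fold lower (2.95 to 3.90). Irf9 and Stat2, parts of the ISRE-binding complex, went from 70.9 to 24.9 CPM and from 27.8 to 11.6 CPM. Usp18, which removes ISG15 from proteins and damps receptor signalling, went from 45 to 17.0 CPM. The regulators therefore spread from 2.41-fold lower for Stat2 to 6.76-fold lower for Irf7.

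Among the antiviral effectors, 12 of 14 measured genes were past 2-fold lower, and the median log2 ratio of the 14 was -2.38. Isg15 was at 512 CPM in uninjured and 98.7 CPM in injured cells, 5.19-fold lower (4.68 to 5.78). The Ifit proteins, which bind foreign RNA, had some of the larger ratios: Ifit1 was at 138 and 14.9 CPM (9.29-fold, 7.14 to 12.3) and Ifit2 at 33.4 and 2.06 CPM (16.2-fold, 8.14 to 37.9). Ifit3 and its near-identical copy Ifit3b, between which reads may be split, were at 112 and 18.2 CPM and at 21.1 and 2.06 CPM. Rsad2, viperin, which makes a chain-terminating nucleotide, was at 176 and 15.7 CPM, 11.2-fold lower (8.70 to 14.8). Rtp4 was 5.22-fold lower, Parp14, an ADP-ribosyltransferase, 4.90-fold, Xaf1 3.87-fold and Trim30a 3.09-fold. Bst2 was at 984 and 405 CPM, only 2.43-fold lower (2.30 to 2.57), and Ifitm3 at 3876 and 3079 CPM, 1.26-fold lower (1.23 to 1.29). The effectors therefore did not share 1 fold change, and the 2 genes that gave the most UMIs were among the least changed.

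The interferon-inducible GTPases were lower for 8 of 8 genes, by a median log2 ratio of -2.47, and their summed level went from 968 to 152 CPM. Iigp1 was at 481 CPM in uninjured and 56.5 CPM in injured cells, 8.50-fold lower (7.43 to 9.78). The guanylate-binding proteins Gbp2 and Gbp3 went from 144 to 32.6 CPM and from 103 to 20.8 CPM. Irgm1, which regulates the other immunity-related GTPases, was 5.43-fold lower, Ifi47 7.12-fold lower and Igtp 4.60-fold lower. Gbp6 had 40 and 1 UMIs, a ratio of 16.9 (2.87 to 685).

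The sensors and synthetases had smaller ratios. Of 7 measured genes 5 were past 2-fold lower, and the median log2 ratio of the 7 was -1.08. Oasl2 was at 76.9 and 17.2 CPM (4.46-fold, 3.47 to 5.83). Ifih1, the MDA5 sensor of long double-stranded RNA, was at 48.3 and 14.1 CPM (3.42-fold, 2.58 to 4.61), while Ddx58, the RIG-I sensor, was at 38.3 and 23.6 CPM (1.62-fold, 1.28 to 2.06). Zbp1 and Dhx58 rested on 63 and 13 UMIs and on 75 and 15 UMIs, and their ratios of 2.05 and 2.12 lay close to the 2-fold line. The log2 ratio of Zbp1 turned from -1.04 to 0.31 when suspected doublets were kept, and that of Dhx58 from -1.08 to 0.05 when every cell was thinned to 1800 UMIs. The 2 chemokines differed in size: Cxcl9 was at 81.0 and 4.63 CPM, 17.5-fold lower (11 to 29.7), and Cxcl10 at 28.6 and 13.6 CPM, 2.1-fold lower (1.56 to 2.88). For Cxcl10 the log2 ratio was -1.07, and 0.01 when suspected doublets were kept.

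Other measures moved with the endothelial-like difference. The summed level of the 12 endothelial markers went from 10777 to 6546 CPM, that of 16 immediate early genes, which tissue dissociation can induce, from 13835 to 7062 CPM, and that of 15 monocyte and macrophage markers from 66.3 to 267 CPM. Neutrophil markers went from 4.13 to 332 CPM, and erythroid markers from 416 to 1589 CPM. Markers of some other tissue cells were lower: muscle fibre markers went from 607 to 139 CPM (11 of 11 measured lower past 2-fold, median log2 ratio -2.01), FAP markers from 368 to 67.3 CPM (10 of 10 measured, median -2.37) and glial markers from 91.2 to 4.88 CPM (5 of 5 measured, median -3.30). The median UMIs per cell went from 2803 to 5935. Their part in the result was not tested. The monocyte and macrophage markers stood, in injured endothelial-like cells, at 0.774 to 3.28% of their level in injured monocyte and macrophage-like cells, where Isg15 was at 161 CPM.

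**Figure D2:**
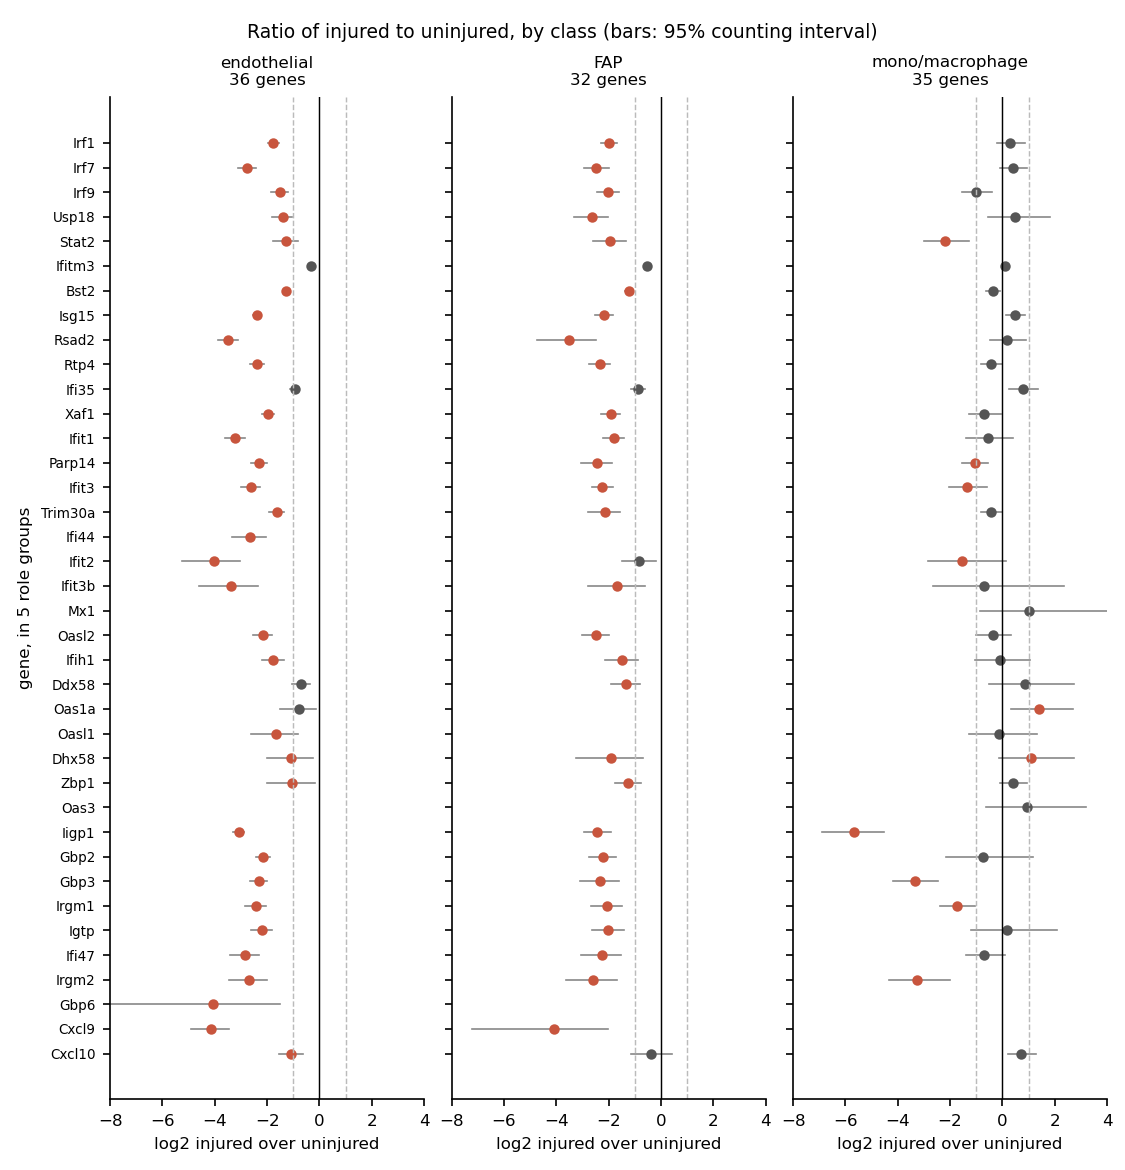
Log2 ratio of injured to uninjured CPM for each gene with at least 20 UMIs in the class, for endothelial-like (36 genes), FAP-like (32) and monocyte and macrophage-like cells (35), as the ratio of the measured counts. Bars are 95% counting intervals, dashed lines mark 2-fold and red points lie past it (counts under 3 were raised to 3 for that call). The points lie left of 0 in the first pair of panels and on both sides of 0 in the last.

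FAP-like cells, the connective tissue progenitors of muscle, showed lower levels of the same gene group. Of 32 measured genes 28 were at least 2-fold lower and 0 at least 2-fold higher, where 29.0% of all 11382 genes measured in the class were lower and 14.9% higher. The median log2 ratio was -2.05, beside -0.29 for all genes. Ifit2, Ifi35, Ifitm3 and Cxcl10 were within 2-fold. Oasl1, Oas1a, Oas3, Mx1, Ifi44 and Gbp6 had too few UMIs to be measured.

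Irf7 was at 42.3 CPM in uninjured and 7.67 CPM in injured FAP-like cells, 5.51-fold lower (3.98 to 7.76), and Usp18 at 25 and 3.99 CPM, 6.28-fold lower (4.01 to 10.1). Isg15 was at 72.0 and 16.1 CPM, 4.47-fold lower (3.54 to 5.66). Rsad2 was at 15.8 and 1.38 CPM, 11.5-fold lower (5.62 to 26.4). All 7 measured GTPases were lower, with Iigp1 at 36.3 and 6.75 CPM, and all 5 measured sensors and synthetases were lower, with Oasl2 at 36.3 and 6.45 CPM. Among these sensors the log2 ratio of Ddx58 turned from -1.35 to 0.03 with cells thinned to 1800 UMIs, and that of Zbp1, -1.24, was -0.95 when scaled by the median of all genes. Zbp1, whose uninjured level was higher in FAP-like than in endothelial-like cells, was at 23.6 and 9.97 CPM (2.37-fold, 1.69 to 3.33). Endothelial markers also went from 464 to 84.6 CPM in FAP-like cells and the FAP markers themselves from 68022 to 9901 CPM, and their part in the result was not tested. Rsad2 and Iigp1 were among the genes whose uninjured FAP-like level lay within the range of carried-over endothelial markers.

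The 3 smaller stromal classes gave fewer measured genes. In tenocyte-like cells 9 of 24 measured genes were lower past 2-fold and 2 higher (20.8% and 9.96% of all genes in the class), with a median log2 ratio of -0.59. With every cell thinned to 1800 UMIs that count of lower genes was 1. Usp18 had 31 and 2 UMIs, a 13.8-fold lower level (3.50 to 119). The 2 higher genes were sensors: Ifih1 at 2.53 and 7.59 CPM (6 and 16 UMIs, 3.0-fold, 1.12 to 9.37) and Zbp1 at 2.95 and 10.9 CPM (7 and 23 UMIs, 3.70-fold, 1.54 to 10.2). With suspected doublets kept the log2 ratio of Ifih1 went from 1.59 to 1.00 and was no longer called. Endothelial markers went from 499 to 111 CPM in tenocyte-like cells (10 of 11 measured lower past 2-fold, median log2 ratio -2.26), and their part in the result was not tested. In the injured tenocyte-like cells the monocyte and macrophage markers stood at 0.586 to 15.3% of their level in monocyte and macrophage-like cells, Zbp1 at 13.6% and Ifih1 at 50.7%. Ifitm3 was at 1079 and 1675 CPM.

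In glial-like cells 9 of 14 measured genes were lower past 2-fold and 0 higher (26.9% and 13.0% of all genes). Irf1 was at 116 and 46.0 CPM (2.52-fold, 1.53 to 4.34) and Rtp4 at 51.0 and 9.20 CPM (5.54-fold, 1.99 to 21.4). Only 63 injured cells stood behind these ratios, 4 UMIs in the case of Rtp4. The count of 9 was 1 with cells thinned to 1800 UMIs, where the log2 ratio of Irf1 was -0.80 in place of -1.34, and 1 for genes with at least 50 UMIs. Endothelial markers went from 609 to 69.0 CPM in this class, immediate early genes from 16477 to 6024 CPM and monocyte and macrophage markers from 4285 to 596 CPM, and their part in the result was not tested. Monocyte and macrophage markers reached 19.8% of their own class level in uninjured glial-like cells, with 8 of the 15 markers at 0. In pericyte and smooth muscle-like cells 5 of 20 measured genes were lower (Irf1, Rsad2, Iigp1, Irgm1 and Gbp3) and Ifitm3 was higher, at 1393 and 3243 CPM (2.33-fold, 2.14 to 2.53). With suspected doublets kept the log2 ratio of Iigp1 in this class turned from -2.27 to 0.71. The shares over all genes were 12.5% lower and 16.3% higher. The summed endothelial markers stood at 14.1% of their endothelial level in the uninjured and 48.8% in the injured cells of this class. Single markers spanned 5.56 to 30.4% in the uninjured cells. Rsad2 (22.1%), Iigp1 (16.7%) and Gbp3 (25.1%) lay within that range, and Irgm1 (40.2%) and Irf1 lay above it. When cells were assigned by their own marker scores, 27 genes were lower.

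Monocyte and macrophage-like cells, which made up 2.65% of uninjured and 64.5% of injured cells, gave mixed directions. Of 35 measured genes 8 were at least 2-fold lower and 2 at least 2-fold higher (23.9% and 8.28% of all 10364 genes), with a median log2 ratio of -0.36 beside -0.18 for all genes. The summed level without Ifitm3 and Bst2 was 1160 CPM in uninjured and 1076 CPM in injured cells. In injured muscle this class had the highest level of 19 of the 38 genes and endothelial-like cells of 13, again without a count over all genes.

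The medians of the roles lay on both sides of 0: the median log2 ratio was 0.30 for 5 regulators, -0.42 for 14 antiviral effectors, 0.64 for 8 sensors and synthetases and -1.74 for 7 GTPases. Of the 14 effectors 3 were at least 2-fold lower and 0 higher. Isg15, against most effectors, was at 115 and 161 CPM (1.40-fold higher, 1.09 to 1.81), Irf7 at 60.4 and 79.4 CPM (1.31-fold, 0.937 to 1.91) and Cxcl10 at 55.1 and 90.0 CPM (1.64-fold, 1.15 to 2.41). The 2 genes past 2-fold were Oas1a, an oligoadenylate synthetase, at 12.4 and 32.5 CPM (2.61-fold, 1.26 to 6.53) and Dhx58, the LGP2 helicase that tunes RNA sensing, at 8.88 and 19.0 CPM (2.14-fold, 0.909 to 6.63). They rested on 7 and 5 uninjured UMIs, and the log2 ratio of Dhx58, 1.10, was 0.13 with cells assigned by their own marker score. Against this, 4 of 7 measured GTPases were at least 2-fold lower and their summed level went from 158 to 47.7 CPM.

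Iigp1 showed the largest ratio in these cells, at 30.2 CPM (17 UMIs) in uninjured and 0.589 CPM (12 UMIs) in injured cells, 51.2-fold lower (23.1 to 118). The log2 ratio, -5.68, was -8.16 when suspected doublets were kept. Its uninjured level was 6.28% of the endothelial level, within the 3.01 to 8.28% at which the endothelial markers stood. Gbp3, Irgm2 and Irgm1 stood above that range. Gbp3 was at 28.4 and 2.80 CPM (10.2-fold, 5.44 to 17.9), Irgm2 at 16.0 and 1.67 CPM (9.58-fold, 4.04 to 20.4) and Irgm1 at 39.1 and 11.7 CPM (3.33-fold, 2.05 to 5.16). Stat2 was 4.56-fold lower (2.42 to 7.98), at 24.9 and 5.45 CPM. Irgm1 was lower past 2-fold in all 6 classes and Iigp1 in all 5 in which it was measured. Iigp1 turned, however, in the pericyte and smooth muscle-like class with doublets kept. Irgm1 in tenocyte-like cells went from -1.17 to -0.71 on the log2 scale with means of per-cell values. In uninjured FAP-like, tenocyte-like and pericyte and smooth muscle-like cells Iigp1 stood at 7.54, 2.45 and 16.7% of its endothelial level. The endothelial markers stood there at 3.21 to 11.5%, 3.18 to 7.22% and 5.56 to 30.4%. Irgm1, at 27.7, 17.2 and 40.2%, stood above these ranges. The part of carried-over RNA in the lower Iigp1 levels was not tested. The uninjured monocyte and macrophage-like cells lay mainly in clusters 20, 30 and 4 and the injured ones in clusters 2, 4, 5 and 15. Cells of mostly different clusters were therefore compared.

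The 4 large injured myeloid clusters differed little in the summed level. Without Ifitm3 and Bst2 it was 1136 CPM in cluster 2 (922 cells, led by C1qb, Pf4 and Mrc1), 1053 CPM in cluster 4 (785 cells, led by Hp, Ly6c2 and Plac8), 1049 CPM in cluster 5 (741 cells, led by Cxcl3, Arg1 and Spp1) and 1012 CPM in cluster 15 (251 cells, led by Cd74 and MHC class II genes). Isg15 was at 169, 150, 173 and 139 CPM in the same order, and Cxcl10 at 85.7, 101, 78.3 and 122 CPM. Ifitm3 stood apart, at 3640 CPM in cluster 4 and at 1557 to 1775 CPM in the other large ones. Ifit3 was at 5.42 CPM in cluster 4 and 19.7 CPM in cluster 2. The 46 injured cells of cluster 20, led by Cd209f, Retnla and Fcna, had a summed level of 970 CPM, with Isg15 at 92.6 CPM, Cxcl10 at 51.5 CPM and Ifitm3 at 1811 CPM.

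Fewer of the genes upstream of the response were past 2-fold in endothelial-like cells. Of 5 measured interferon receptor genes 1 was at least 2-fold lower, and the median log2 ratio was -0.76. The type I receptor chains Ifnar1 and Ifnar2 went from 45.5 to 28.3 CPM and from 129 to 76.1 CPM, while the type II chain Ifngr2 went from 29.0 to 51.9 CPM. Of the 5 kinases and STATs 2 were lower, while Jak1 was at 145 and 149 CPM. Upstream sensors, adaptors and kinases had a median log2 ratio of -0.01 over 9 measured genes. Other targets of interferon were also lower: of 53 further interferon-stimulated genes 38 were lower and 3 higher, and of 16 genes of MHC class I and the immunoproteasome 12 were lower and 0 higher, B2m from 3728 to 1685 CPM. In monocyte and macrophage-like cells the same lists gave 13 lower and 8 higher of 51, and 7 lower and 0 higher of 16. Over all genes measured, 20% were lower and 10.8% higher in endothelial-like cells, and 23.9% and 8.28% in monocyte and macrophage-like cells. The ligands themselves were scarce. All 21 ligand genes had 0 UMIs in endothelial-like cells, and Ifnb1 had 1 UMI in uninjured and 26 UMIs, spread over 9 of 2746 cells, in injured monocyte and macrophage-like cells.

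Uninjured endothelial-like cells differed among themselves in how much of the gene group they held. Each cell was thinned to 1800 UMIs, and the 36 genes other than Ifitm3 and Bst2 were summed. The median cell held 5 UMIs, the lowest 5% held 1 or fewer, the highest 5% held 16 or more and the highest held 81. The variance was 5.29 times the mean, where counting alone gives a value near 1. In injured endothelial-like cells the median was 1 UMI, 36.8% of cells held none (3.75% in uninjured muscle), and 1.71% held 10 or more (17.8% in uninjured muscle). Gene by gene in uninjured cells, the variance was 2.95 times the mean for Isg15, 2.35 times for Rsad2 and 2.32 times for Ifit1, but 1.35 times for Irf1. The median over 29 of the genes was 1.21, beside 1.02 over 5561 genes.

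**Figure D3:**
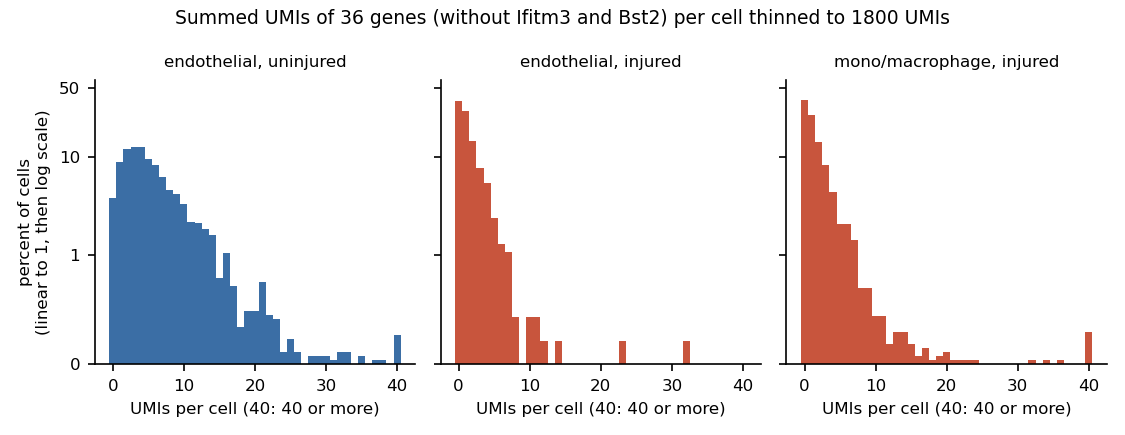
Distribution of the summed UMIs of 36 genes per cell after thinning each cell to 1800 UMIs, for uninjured endothelial-like cells (left), injured endothelial-like cells (middle) and injured monocyte and macrophage-like cells (right). The vertical axis is percent of cells, linear up to 1 and logarithmic above, and the last bar holds cells with 40 or more UMIs. The uninjured endothelial-like cells spread widely around a median of 5, while the injured monocyte and macrophage-like cells have a median of 1 and a long thin tail.

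The genes were divided in alphabetical order into 2 alternating sets, odd and even, so that cells could be ordered by one set and the other set read. With uninjured endothelial-like cells ordered by the odd set, the even set stood at 2216 CPM in the top 10% (267 cells) and at 689 CPM in the lower 50% (1333 cells), a ratio of 3.22 (2.98 to 3.48). All 15 genes read were higher in the top cells and 13 were at least 2-fold higher, where 2.03% of 8721 other genes were. With the even set ordering, the odd set without Ifitm3 and Bst2 stood at 5329 and 1637 CPM, a ratio of 3.26 (3.10 to 3.42). All 19 genes read were higher and 15 at least 2-fold, where 2.08% of 8671 other genes were. Along the 10 steps of cells ordered by the odd set, the even set stood at 664 CPM in the lowest, 853 CPM in the sixth, 1481 CPM in the ninth and 2214 CPM in the highest.

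The Ifit genes and Oasl1 were among those with the largest ratios. Ifit1 was at 474 CPM in the top cells and 53.3 CPM in the lower cells (8.89-fold, 7.13 to 11.1), Ifit3 at 412 and 56.3 CPM (7.32-fold, 5.85 to 9.18), Ifit2 at 110 and 12.9 CPM (8.54-fold, 5.38 to 13.8) and Ifit3b 13.4-fold higher (7.41 to 25.5). Oasl1 was at 47.9 and 4.58 CPM (10.4-fold, 4.89 to 23.7), and Ifi44 was 7.88-fold higher. Isg15 was at 1394 and 299 CPM, 4.66-fold higher, and Usp18 at 139 and 24.2 CPM, 5.77-fold higher. Irf1 stood at 216 and 172 CPM (1.26-fold, 1.00 to 1.56), Cxcl9 was 1.57-fold higher and Ifi35 1.59-fold higher. Irf1 and Cxcl9 thus hardly followed the rest from cell to cell, although both were lower in injured cells.

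The ordering picked out few other features. The interferon receptors were 1.09-fold higher in the top cells with the odd set ordering and 1.14-fold with the even set, and the endothelial markers were at 1.01 and 0.962 times their level in the lower cells. Arterial markers were 1.97 and 1.39 times higher, and venous markers stood at 0.401 and 0.649 times. Immediate early genes were at 0.926 times with one set and 1.28 times with the other. Across the 2666 cells, the genes whose thinned levels followed the summed gene group most closely, out of 5562 outside it, were Ly6a (Pearson r = 0.320), Ly6e (0.272), Gbp7 (0.250), Ifi27l2a (0.247), Psmb8 (0.244), Cmpk2 (0.237) and B2m (0.215), where the median of all genes was -0.001. Others among the 15 most alike were AW112010 (0.198), Hey1, Stmn2, H2-K1, H2-D1, Sp100 and Phf11d (0.164). The sum behind these correlations included Ifitm3 and Bst2. In uninjured endothelial-like cells thinned to 1800 UMIs it averaged 14.7 UMIs a cell, against 6.08 without that pair. Whether these genes followed the pair or the rest of the gene group was not tested. The cells share 1 library, and at this depth single genes hold few UMIs a cell. In injured endothelial-like cells 7 genes had enough UMIs to be read with the even set ordering, and 5 of them were at least 2-fold higher in the top 10% (47 cells), where 7.18% of other genes were. With the odd set ordering 2 genes were read, and Gbp2 was 5.36-fold higher (5.83% of other genes were past 2-fold) while Irf1 stood at 0.498 times. In these top cells the venous markers were 9.12 times higher with the odd set and 1.56 times with the even set, opposite in direction to the uninjured cells, and the capillary markers 2.47 and 2.06 times higher. Their part in the result was not tested.

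**Figure D4:**
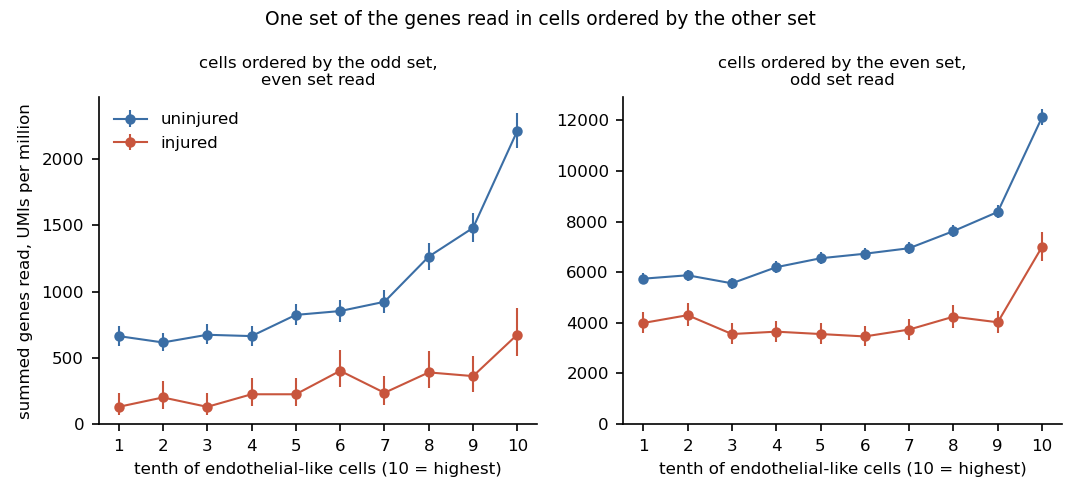
Summed level (CPM) of one set of the genes in endothelial-like cells ordered by the other set into 10 equal steps, in the uninjured and the injured library, with 95% counting intervals. The left panel reads the even set, which rises from 664 to 2214 CPM in the uninjured library. The right panel reads the odd set with Ifitm3 and Bst2 included.

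The uninjured endothelial-like cells were divided again, without the genes described and the listed interferon pathway genes. This gave 2 capillary-like subclusters (983 and 814 cells), an arterial-like one (508 cells), a venous-like one (332 cells) and 29 cells left unnamed. The first capillary-like subcluster was led by the heat shock genes Hspa1a and Dnajb1 and held immediate early genes at 22456 CPM, against 3495 CPM in the second, 11350 CPM in the arterial-like and 12700 CPM in the venous-like cells. The summed level of the 36 genes was 3739 and 2823 CPM in the capillary-like subclusters, 4579 CPM in the arterial-like and 2587 CPM in the venous-like cells. Each of these was above the 751 CPM of all injured endothelial-like cells. The injured cells were not divided in this way, and the part of endothelial subtype in the difference was not tested. Of the 36 genes measured, 27 were highest in the arterial-like cells, 15 of them with an interval apart from the other named subclusters, and 20 were lowest in the venous-like cells. Some first places were near ties, such as Bst2 at 1168 CPM against 1161 CPM in the second capillary-like subcluster. The same counts were not made over all genes, so they have no background share beside them.

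Irf7 was at 275 CPM in arterial-like cells, 117 and 97.5 CPM in the capillary-like subclusters and 40.6 CPM in venous-like cells. Isg15 was at 844, 603, 285 and 205 CPM in the same order, and Ifit2 at 56.3, 34.0, 30.2 and 6.65 CPM. Zbp1 was at 21.2 CPM in arterial-like cells and at 2.31 to 4.31 CPM in the others. The chemokines had other orders. Cxcl9 was at 116 and 111 CPM in the capillary-like subclusters, 53.9 CPM in venous-like and 5.16 CPM in arterial-like cells, and Cxcl10 was at 80.5 CPM in venous-like, 38.9 and 2.59 CPM in the capillary-like and 6.71 CPM in arterial-like cells. Irf1 also departed from the rest, at 263 CPM in venous-like, 214 CPM in arterial-like and 216 and 122 CPM in the capillary-like cells. Irf1 and Cxcl10 were low in the capillary-like subcluster with the lowest immediate early level. They were not alone: Isg15 and Iigp1 (277 against 594 CPM) were also lower there than in the first capillary-like subcluster. Of the 36 genes measured, 11 were lowest in that second subcluster and 3 were highest there (Ddx58, Ifi35 and Stat2). Whether the dissociation of the tissue set these levels was not tested. Of the top 10% of cells ordered by the odd set, 37.5% were arterial-like and 2.62% venous-like, against 19.1% and 12.5% of all cells. Within the first capillary-like subcluster alone the ratio of the top 10% to the lower 50% was 3.20.

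**Figure D5:**
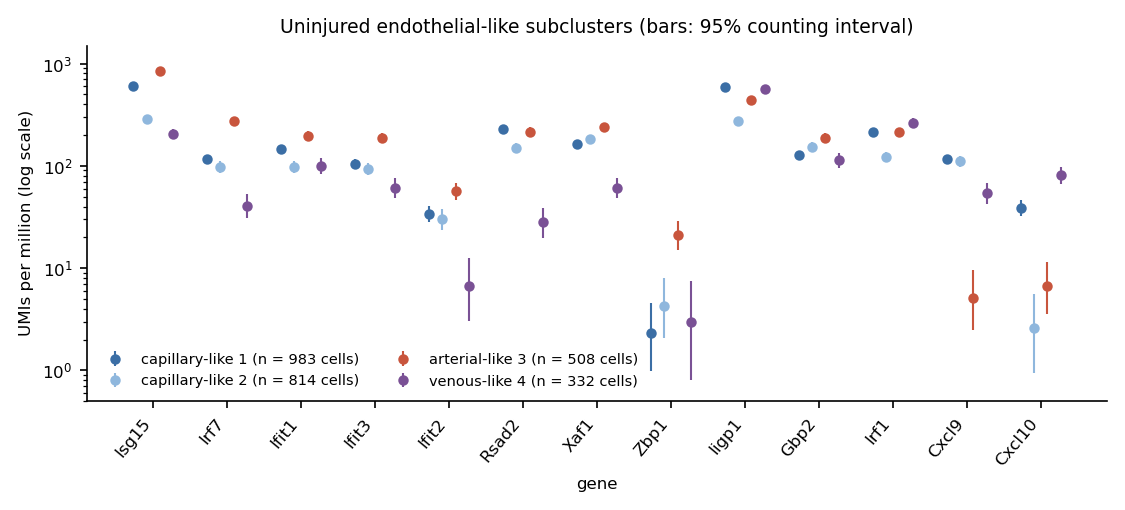
Levels of 13 of the genes (CPM, log axis) in the 4 named subclusters of uninjured endothelial-like cells, with 95% counting intervals. Arterial-like cells are highest for Isg15, Irf7, Ifit1, Ifit2, Ifit3, Xaf1 and Zbp1 and low for Cxcl9 and Cxcl10.

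In injured muscle a small minority of monocyte and macrophage-like cells held high levels of the gene group, a reading added after the values of these cells had been seen. After thinning to 1800 UMIs the median cell held 1 UMI of the 36 genes, 37.3% held none, and 77 of 2746 cells (2.80%) held 10 or more, up to 87. The variance was 9.56 times the mean, against 3.11 times in the 136 uninjured cells. In the top 2% of cells (55) ordered by the even set, the odd set without Ifitm3 and Bst2 stood at 5535 CPM, against 379 CPM in the lower 50% (1373 cells), a ratio of 14.6 (13.1 to 16.2). All 16 genes read were at least 2-fold higher, where 9.50% of 6527 other genes were. The odd set without Ifitm3 and Bst2 was also used to order the cells. The even set then stood at 4606 and 212 CPM, a ratio of 21.8 (19.2 to 24.7). Of 10 genes read, 9 were at least 2-fold higher (9.62% of 6531 other genes).

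Isg15 was at 1889 CPM in these 55 cells and 72.8 CPM in the lower cells (25.9-fold, 21.0 to 32.0), and Irf7 at 737 and 36.0 CPM (20.5-fold, 14.8 to 28.2). Cxcl10 was at 1758 and 36.8 CPM (47.7-fold, 36.8 to 62.2) and Rsad2 at 848 and 5.26 CPM (161-fold, 89.4 to 315). Ifit1 had 49 UMIs in the 55 cells and 5 UMIs in the 1373. Ifit2 had 11 UMIs against 0, at least 91.5-fold higher with the lower cells set at 3 UMIs. Irf1 again did not follow, at 90.9 and 66.4 CPM (1.37-fold, 0.615 to 2.66), and Iigp1 had 0 and 3 UMIs.

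These cells were spread over the myeloid clusters. With the even set ordering they were 2.06% of cluster 2, 2.04% of cluster 4, 2.02% of cluster 5 and 1.59% of cluster 15. The monocyte and macrophage markers were at 1.04 times and the immediate early genes at 1.30 times their level in the lower cells, and the median UMIs per cell were 6619 and 7036. Neutrophil markers stood at 2.45 times with the even set ordering and at 0.540 times with the odd set without Ifitm3 and Bst2. Plasmacytoid dendritic markers had 0 UMIs in the 55 cells under both.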

How the data were processed

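Single cells of 1 uninjured and 1 injured muscle were measured. The deposited values are raw UMI counts per gene and cell, made with Cell Ranger 2.1.1 on mm10, per the submitters' processing notes. Totals were 22994502 and 39014762 UMIs over 5581 and 4489 barcodes. The 39 genes, the pathway lists and the markers were chosen with earlier results of these data known, and the rule that names clusters was adjusted after the data were seen.

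Cells with at least 200 genes and at most 20% mitochondrial UMIs were kept. Scrublet's own threshold marked 1 cell per library, so the cells with the highest Scrublet scores, 249 and 161, were removed instead (0.8% of barcodes per 1000 barcodes). Cells were clustered with scanpy 1.11.5 and leidenalg 0.10.2 (2000 variable genes, 30 components, 15 neighbours, resolution 1), without the genes described or the pathway lists. A cluster took a class name from the markers present in it; clusters with a second class's markers at 25% of that class's level were left as mixed (326 uninjured and 30 injured cells), and 1 and 151 cells stayed unnamed. UMIs were summed by class and library. For the spread between cells, each cell was thinned to 1800 UMIs. A gene was measured with at least 20 UMIs over both libraries in the class, so a gene could pass through 1 library alone. It was called at 2-fold by size only, with counts under 3 raised to 3. Intervals are exact (Poisson for levels, conditional binomial for ratios). Named in full were, in each role group, the genes with the most UMIs in the class and those with the largest ratios. The 15 genes named as most alike had at least 100 thinned UMIs and the highest Pearson correlations of log values with the summed genes. These correlations were over uninjured endothelial-like cells, with Ifitm3 and Bst2 in the sum. The ratio calls, their intervals and the ordering of cells by one set of the genes were tested on simulated data. Clustering, cluster naming and the promoter matches were not. Alternatives are given in the closing section.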

Additional observations from a re-analysis of the deposited data

Results flagged for a closer look

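For 3 sensor genes the injured-to-uninjured ratio went past 2-fold in opposite directions in different classes. Ifih1 had a log2 ratio of -1.77 in endothelial-like and -1.49 in FAP-like cells, and 1.59 in tenocyte-like cells. Zbp1 had -1.04 in endothelial-like and -1.24 in FAP-like cells, and 1.89 in tenocyte-like cells. Dhx58 had -1.08 in endothelial-like and -1.91 in FAP-like cells, and 1.10 in monocyte and macrophage-like cells. With 1 library per group the difference between classes was not tested. The higher values rest on 6 and 16 UMIs for Ifih1, on 7 and 23 for Zbp1 and on 5 uninjured UMIs for Dhx58. Several of these calls ended or turned under an alternative. In endothelial-like cells Zbp1 was 0.31 with suspected doublets kept and Dhx58 0.05 with cells thinned to 1800 UMIs. In FAP-like cells Zbp1 was -0.95 scaled by the median of all genes. Ifih1 in tenocyte-like cells was 1.00, just short of 2-fold, with doublets kept, and Dhx58 in monocyte and macrophage-like cells was 0.13 with cells assigned by their own marker score and 0.35 with thinned cells.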

How the results depend on the processing

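No paired analysis was possible because each group was 1 library. Over 14 alternatives the endothelial-like median log2 ratio ran from -2.23 to -1.89 with 28 to 32 genes lower, the FAP-like median from -2.10 to -1.56 with 19 to 30 lower, and the monocyte and macrophage-like median from -0.37 to -0.12 with 6 to 10 lower. Of the genes called, 27 of 32 in endothelial-like, 22 of 28 in FAP-like, 7 of 10 in monocyte and macrophage-like, 4 of 11 in tenocyte-like, 3 of 9 in glial-like and 3 of 6 in pericyte and smooth muscle-like cells were called in every alternative. Scaling by the median ratio of all genes, which was -0.19 in endothelial-like and -0.29 in FAP-like cells, gave medians of -1.99 and -1.75.

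The small classes depended on the settings, and the cause was not tested. The tenocyte-like count of lower genes, 9, was 1 with cells thinned to 1800 UMIs, 4 with means of per-cell values, 2 for genes with at least 50 UMIs and 5 scaled by the median of all genes. The glial-like count, 9, was 16 with suspected doublets kept, 1 with thinned cells and 1 for genes with at least 50 UMIs, where the median turned from -1.30 to 0.04. The class gave no value at resolution 0.5 or with a common minimum of UMIs per cell. The pericyte and smooth muscle-like median, -0.28, was 0.78 with doublets kept and -2.01 with cells assigned by their own marker score. Its count of lower genes, 5, was 1 with doublets kept, 27 by marker score, 0 with thinned cells, 10 for genes with at least 5 UMIs and 2 with at least 50. The endothelial-like log2 ratio of Cxcl10 turned from -1.07 to 0.01 with doublets kept. Zbp1 (0.31) turned there too, as did Iigp1 in the pericyte and smooth muscle-like class (0.71). With thinned cells Dhx58 turned in endothelial-like (0.05) and Ddx58 in FAP-like cells (0.03).

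The ratio of 3.22 between top and lower uninjured endothelial-like cells was 2.03 with the even set ordering (3.26 then without Ifitm3 and Bst2), 4.26 for the top 5% and 3.84 with Ifitm3 and Bst2 left out of the ordering. The ratio of 14.6 in injured monocyte and macrophage-like cells was 21.8 with the odd set without Ifitm3 and Bst2 ordering. It was 6.03 for the top 10% and 10.1 thinned to 1000 UMIs.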
